A study of Canis rufus and Canis latrans with 56 samples.

Results

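The C/EBP proteins are a family of transcription factors, and 5 of its genes, CEBPA, CEBPB, CEBPD, CEBPE and CEBPG, were described here in canid blood. Members were chosen by gene name, and each is read by 1 probe, so they make up 5 of 24354 probes and 5 of 16121 named genes on the array. RNA came from whole blood of 1 coyote (Canis latrans, animal 20288, a free-ranging female) and 13 red wolves (Canis rufus), of which 6 were captive and 7 free-ranging. All blood was kept in RNAlater, and each animal's RNA, once labelled, went onto 4 human Illumina bead arrays, which gave 56 arrays on 7 slides of 8. No age was stated, and because the labels do not give a status and a sex for every wolf, wolves were not compared on either. The 4 arrays of an animal are technical repeats of 1 RNA, and the tests among wolves measure differences between animals against array noise.

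C/EBP proteins bind DNA as dimers through a basic region and a leucine zipper, and they carry the differentiation of granulocytes and monocytes and the response of these cells to inflammation. C/EBP-alpha, the product of CEBPA, commits progenitors to the granulocyte line, and C/EBP-epsilon, the product of CEBPE, drives the late steps of neutrophil and eosinophil maturation, including the secondary granules. C/EBP-beta and C/EBP-delta are induced by cytokines in mature cells, C/EBP-beta also carries emergency granulocyte production, and C/EBP-gamma lacks a strong activation domain and mostly works as a partner of other basic leucine zipper proteins. These roles were worked out mainly in humans and mice.

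Levels are on a log2 scale on which the mean over all probes of an array is 0, so each unit is a doubling of the probe's brightness. The level of a probe depends on how well a human probe binds the canid transcript, and levels of different probes were not ranked against each other. Genes of liver and skeletal muscle, 40 in number, served to set a bound for background, which was the mean level of the brightest of them (HPX, at 0.40), and 2064 probes lay above it. Among blood cell markers, 8 of 15 red cell genes lay above the bound (HBD at 6.15), against 1 of 21 neutrophil genes (NCF1 at 0.43), 3 of 13 monocyte genes (TYROBP, FCER1G and MARCO), 3 of 17 T cell genes, 1 of 16 platelet genes, 2 of 9 eosinophil and basophil genes and none of the 15 genes of B and plasma cells. In whole blood, fewer cells of a type and less RNA per cell cannot be told apart. The SD over all probes of an array ran from 0.338 to 0.669, and it was lowest on average in wolf 11136.

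CEBPB was the one member far above background. It exceeded the bound on all 56 arrays, with a mean level of 5.04, while CEBPA exceeded it on 46 arrays, CEBPD on 28, CEBPE on 3 and CEBPG on 0. By animal, the slide-adjusted level lay above the bound in 14 animals for CEBPB, 12 for CEBPA, 8 for CEBPD and none of the 14 for CEBPE or CEBPG. The probes of CEBPE and CEBPG were therefore not resolved from background in any animal. Since a level depends on how well the probe binds, this sets no limit on the amount of their transcripts.

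**Figure D1:**
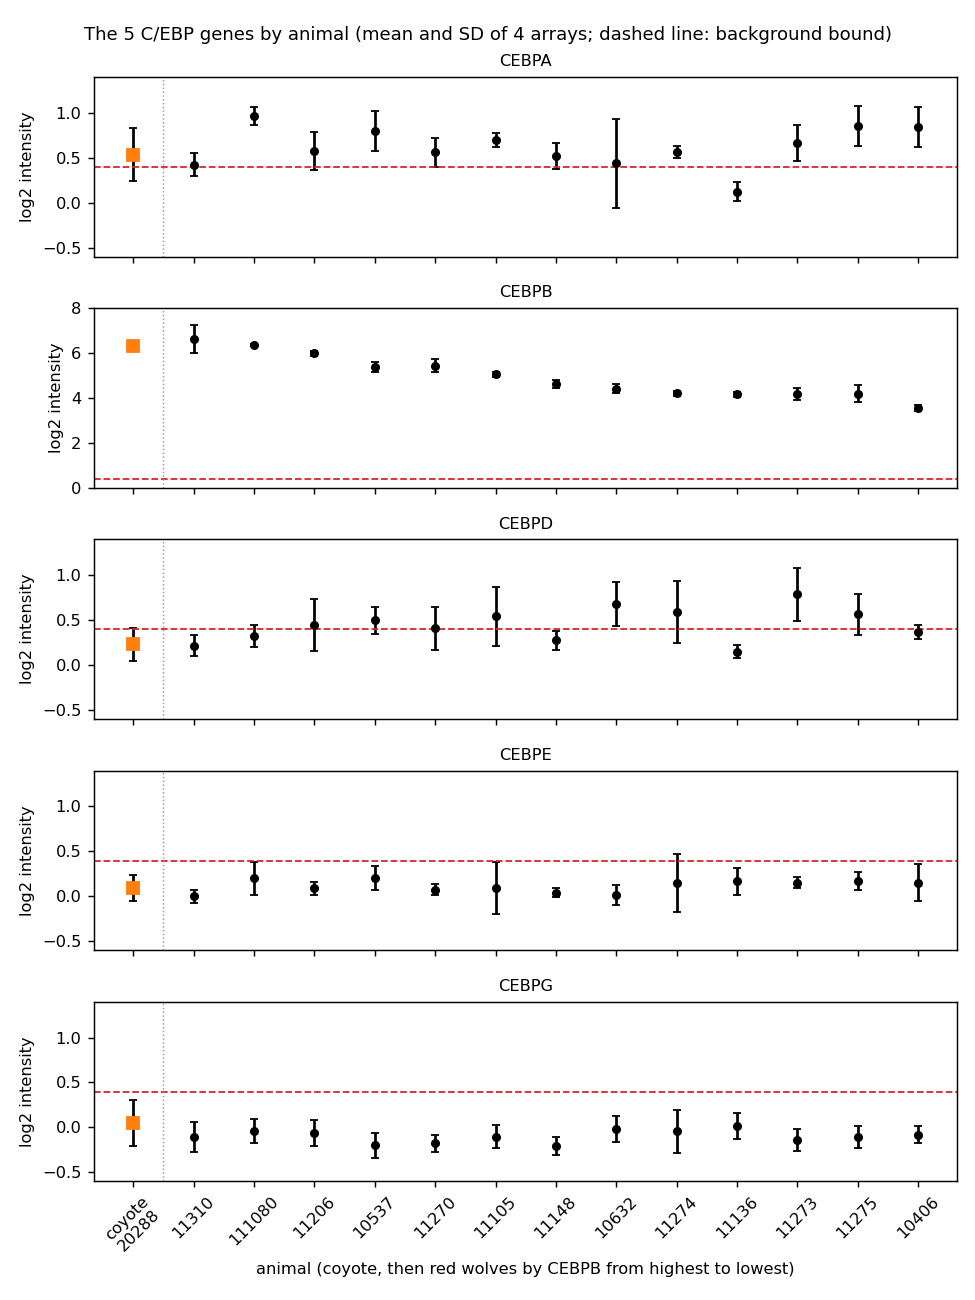
Mean log2 intensity relative to the array mean of the 5 C/EBP probes, with the SD of 4 arrays as bars, for the coyote (square) and the 13 red wolves (circles), ordered by CEBPB; the dashed line is the background bound of 0.40. CEBPB, on its own scale, descends over the wolves, while CEBPA and CEBPD lie around the bound and CEBPE and CEBPG below it.

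To test for differences among the wolves, animal and slide were fitted together in limma, and the F test over animals called 11.2% of all probes and 78.1% of the probes above the bound at an adjusted p under 0.05. Of the 5 members 3 were called, CEBPB (adjusted p = 1.76e-26), CEBPA (5.73e-05) and CEBPD (0.0157), and these are the 3 whose mean lay above the bound. CEBPE (0.688) and CEBPG (0.713) were not called. The SD over wolves was 0.97 for CEBPB against 0.23 between arrays, and 0.23 against 0.21 for CEBPA. It was 0.14 against 0.13 for CEBPD, 0.08 against 0.16 for CEBPE and 0.07 against 0.14 for CEBPG. CEBPB had the 16th largest SD over wolves and the 40th largest F of 24354 probes. The share of variance between wolves was 0.941 for CEBPB, 0.475 for CEBPA and 0.434 for CEBPD, against a median of 0.521 over probes above the bound.

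CEBPB spanned a wide, graded range. Wolf 11310 had log2 levels of 6.78, 7.05, 6.99 and 5.72 on its 4 arrays, and wolf 111080 had 6.45, 6.33, 6.34 and 6.33. Wolf 11206 had 5.90, 5.94, 6.01 and 6.13. These 3 wolves were the highest, and each of their arrays exceeded every array of the other 10 wolves, the lowest array of wolf 11310 by the least. Wolf 10537 followed with 5.23, 5.14, 5.67 and 5.47, wolf 11270 with 5.19, 5.69, 5.21 and 5.67, and wolf 11105 with 5.12, 4.94, 5.13 and 5.00. These 3 wolves stood between the highest and the rest, and none of their arrays was lower than the arrays of the wolves named next.

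Wolf 11148 had 4.50, 4.72, 4.46 and 4.81, and wolf 10632 had 4.30, 4.38, 4.74 and 4.26. Wolf 11274 had 4.27, 4.11, 4.13 and 4.31, wolf 11136 had 4.14, 4.28, 4.14 and 4.05, wolf 11273 had 3.83, 4.16, 4.40 and 4.33, and wolf 11275 had 4.01, 4.09, 3.92 and 4.75. The array ranges of neighbours in the order overlapped among these 6 wolves. Wolf 10406 was the lowest, with 3.56, 3.75, 3.48 and 3.43, and each of its arrays lay below every array of the other wolves.

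**Figure D2:**
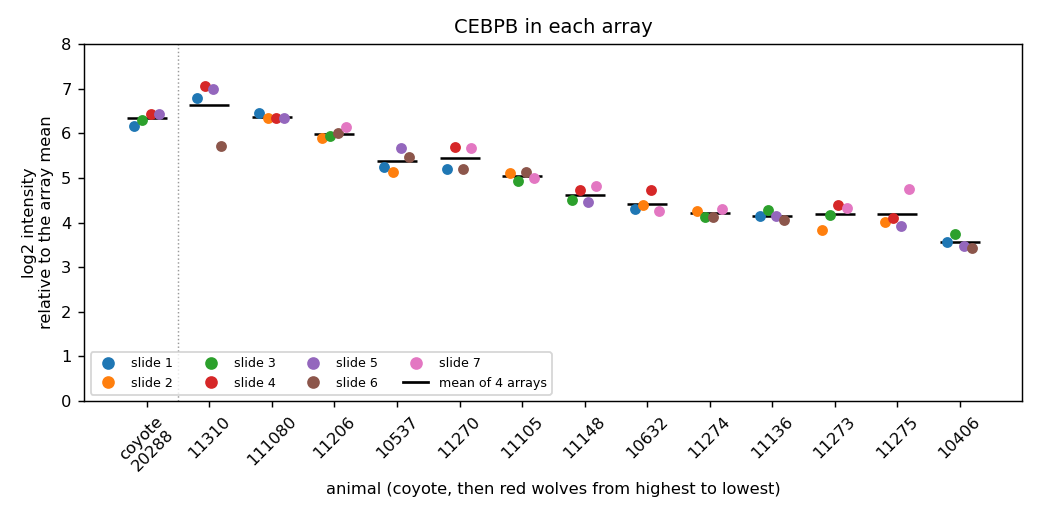
CEBPB log2 intensity relative to the array mean on each of the 56 arrays, coloured by slide, with the mean of the 4 arrays of an animal as a line, for the coyote and the 13 wolves from highest to lowest. Wolf 10406 lies below all others, and 1 array of wolf 11310, on slide 6, lies at 5.72 against 6.78 or more for its other arrays.

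Pairs of wolves were compared in the same fit, with p adjusted over all probes and all 78 pairs, and 2.61% of all such tests and 23.1% of those on probes above the bound were called. For CEBPB 53 of 78 pairs were called. The smallest difference called was 0.60 and the largest not called 0.61 on the log2 scale. Wolf 11310 exceeded wolf 10406 by 3.02 (SE 0.17, adjusted p = 3.93e-21 by limma), an 8.11-fold difference, and wolf 111080 exceeded wolf 10406 by 2.73 (SE 0.18, adjusted p = 8.46e-19). Wolves 11310 and 111080 were each higher than 10 of the other 12 wolves, wolf 11206 was higher than 9, and wolf 10406 was lower than 10. None of the 12 steps between neighbours in the order of CEBPB levels was called. The largest of these steps were 0.57 between wolves 11206 and 10537 (adjusted p = 0.0804 by limma), 0.55 between 11105 and 11148 (0.0891) and 0.49 between 11273 and 10406 (0.186).

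**Figure D3:**
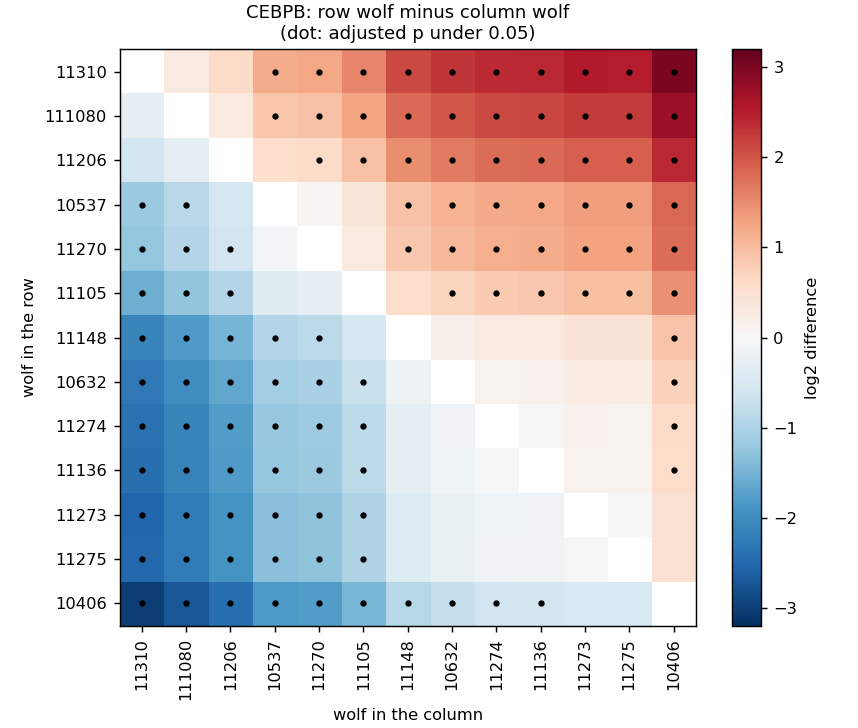
Difference in CEBPB log2 level between each pair of red wolves, row minus column, ordered from the highest wolf to the lowest, with a dot where the adjusted p was under 0.05. Dots fill the pairs far apart in the order and are missing beside the diagonal, where none of the 12 neighbouring pairs was called.

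The distance between the extremes of CEBPB was also seen within slides, while wolves closer in the order changed places on some slides. On slides 1, 5 and 6, which carried both, wolf 11310 exceeded wolf 10406 by 3.23, 3.50 and 2.29. Wolf 10406 was the lowest wolf on each of its 4 slides. Wolf 11310 was the highest wolf on slides 1, 4 and 5, and on slide 6 it stood second to wolf 11206, at 5.72 against 6.01. CEBPB did not pass the test of a slide effect (adjusted p = 0.102 by limma), where 20.3% of all probes and 84% of probes above the bound were called.

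**Figure D4:**
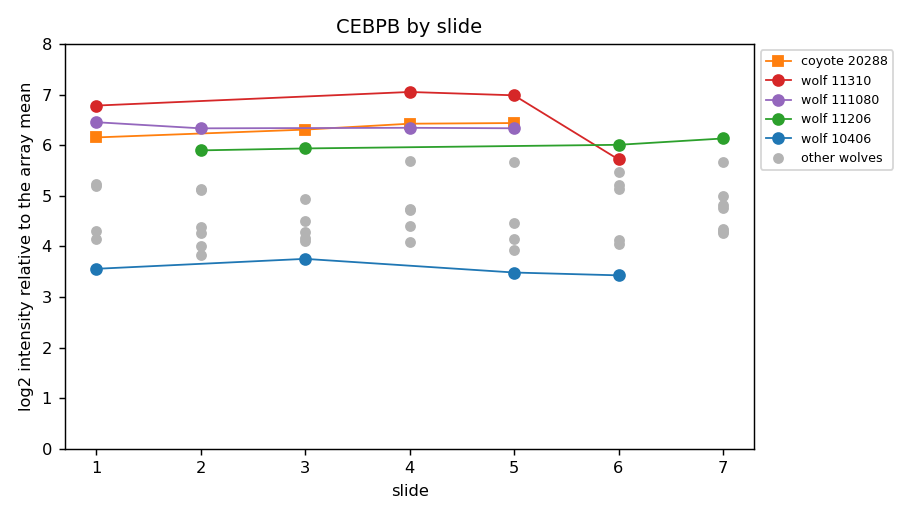
CEBPB log2 intensity relative to the array mean on each of 7 slides, with the coyote and 4 wolves picked out and the other wolves in grey. Wolf 10406 is the lowest point on slides 1, 3, 5 and 6, and wolf 11310 is the highest on slides 1, 4 and 5.

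The low array of wolf 11310 on slide 6 also had the lowest values of that wolf for EGR1 and FOS, transcription factors switched on within minutes of a stimulus. EGR1 stood at 4.83 there against 5.62, 5.85 and 5.64 on the other arrays, and FOS at 3.83 against 4.45, 5.37 and 5.05. The SD over all probes of that array was 0.347 against 0.474, 0.573 and 0.523, and its part in the lower values was not tested. Without that array CEBPB remained called among the wolves, and 59 pairs of wolves were called.

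A note of collection in the wild stands in the labels of the coyote and of wolves 11310, 111080 and 11136. Wolves 11310 and 111080 had the highest CEBPB of the wolves, at slide-adjusted levels of 6.65 and 6.35, and wolf 11136 stood at 4.22, below the wolves' median of 4.53. Since 7 wolves were free-ranging, the note does not mark all of them, and it was not used as a group.

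CEBPA lay just above the bound and differed among the wolves mainly through wolf 11136. That wolf had 0.25, -0.00, 0.12 and 0.12 on its arrays, all under the bound. Wolf 111080, the highest, had 0.96, 0.84, 0.99 and 1.09, wolf 11275 had 0.54, 0.97, 0.89 and 1.04, and wolf 10406 had 0.92, 1.09, 0.57 and 0.79. The remaining 9 wolves had array means between 0.43 and 0.80, and the array ranges of neighbours in the order overlapped. Of 78 pairs 11 were called, 8 of them with wolf 11136 as the lower wolf. The largest difference in measured intensity was 0.84 between wolves 111080 and 11136 (SE 0.14, adjusted p = 2.27e-05 by limma). Since wolf 11136 had only values under the bound, wolf 111080 was set against the bound itself. Its estimated level was 1.46-fold higher than the bound, with no allowance for array noise. Wolf 111080 was also higher than 11310 by 0.57 and than 10632 by 0.51, and wolf 11275 was higher than 11310 by 0.49, where wolf 11310 had 3 of 4 arrays above the bound but a slide-adjusted level just under it. Wolf 10632 read -0.31 on slide 7 against 0.67 to 0.71 on its other arrays. The part of that array in the difference from wolf 111080 was not tested. None of the 12 neighbouring steps was called. Without wolf 11136, the wolf with the narrowest arrays, CEBPA still differed among the other wolves (adjusted p = 0.027 by limma), but 2 of 66 pairs were called. Of the extremes of CEBPB, wolf 11310 stood at 0.38 and wolf 10406 at 0.84 for CEBPA.

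CEBPD, close to the bound, was highest in wolf 11273, with 0.91, 0.39, 0.76 and 1.09. The lowest were wolf 11148 (0.31, 0.40, 0.15 and 0.24), wolf 11310 (0.29, 0.33, 0.08 and 0.15) and wolf 11136 (0.16, 0.08, 0.10 and 0.24), and these are the 3 pairs called, all with wolf 11273 as the higher wolf. The differences in measured intensity were 0.45, 0.40 and 0.40 on the log2 scale. All 3 lower wolves had slide-adjusted levels under the bound, with 1 array above it in wolf 11148 and none in wolves 11310 and 11136. The estimated level of wolf 11273 was 1.23-fold higher than the bound, with no allowance for array noise, and 3 of its 4 arrays lay above it. CEBPD was the one member that differed between slides (adjusted p = 1.40e-07 by limma). Its wolves averaged 0.81 on slide 7, 0.61 on slide 2 and 0.21 on slide 5, so that the deposited values of an animal spread over its slides. Its call among the wolves was lost in 3 of the 4 settings that left out 1 array of each animal (adjusted p from 0.0804 to 0.165 by limma) and without wolf 11273 (adjusted p = 0.0676 by limma). CEBPD is also a glucocorticoid-responsive gene.

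CEBPE ran from -0.26 to 0.53 over the 56 arrays and CEBPG from -0.38 to 0.36. Wolf means lay between -0.00 and 0.20 for CEBPE and between -0.21 and 0.01 for CEBPG, within the SD of the arrays of an animal, which reached 0.33 and 0.24 among the wolves. None of their 78 pairs was called.

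Correlations between members were computed over the 13 wolves. Of 10 pairs of member genes, none had an adjusted permutation p under 0.05, and 1 had an unadjusted p under 0.05. For CEBPB with CEBPA, Pearson's r was 0.049 (two-sided permutation p = 0.873, or 0.969 adjusted), Spearman's rho was -0.121 (permutation p = 0.694, or 0.891 adjusted), and without wolves 11136 and 111080 r was -0.423 (permutation p = 0.195). For CEBPB with CEBPD, r was -0.432 (permutation p = 0.140, or 0.392 adjusted), rho was -0.357 (permutation p = 0.232, or 0.581 adjusted), and without wolves 11310 and 111080 r was -0.158 (permutation p = 0.642). The r of CEBPB with CEBPA turned negative under other scalings, to -0.369 after quantile normalization (adjusted permutation p = 0.400) and -0.560 with arrays scaled to the same SD (0.162). Within the 7 slides these correlations ran from -0.454 to 0.636 and from -0.702 to 0.526. The pair with the unadjusted p under 0.05 was CEBPA with CEBPE, with r = 0.627 (permutation p = 0.0205, or 0.205 adjusted) and rho = 0.692 (permutation p = 0.0108, or 0.108 adjusted). Without wolves 11136 and 111080 its r was 0.826 (permutation p = 0.00194), and within slides r ran from -0.218 to 0.846. Leaving out wolf 11136 alone gave r = 0.842, which passed (adjusted permutation p = 0.0084). CEBPE lay below the bound in each wolf.

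The genes whose levels over the 13 wolves were most like CEBPB, among 1596 other genes above the bound, were CDKN2AIP, a partner of the ARF tumour suppressor (r = 0.967), YTHDF3, a reader of methylated RNA (0.957), the calcium-binding gene EFHD2 (0.955), the phosphatase subunit gene PPP1CC (0.945), WDR83OS (0.945) and the deubiquitinase gene JOSD1 (0.943). The median r with CEBPB over the 1596 genes was 0.110, and 621 had r over 0.5, so a high r is common here. CDKN2AIP, with a mean level of 0.43, lay under the bound in wolves 11148, 10632, 11274, 11136, 11275, 11273 and 10406, the lowest in CEBPB. JOSD1 lay under it in wolves 11148, 11275, 11273 and 10406, and YTHDF3 in wolves 11273 and 10406. The low ends of these genes are not resolved from background. EFHD2 stood at 2.59 in wolf 11310 and 0.53 in wolf 10406, and PPP1CC at 3.83 in wolf 11310 and 2.09 in wolf 10406. Least like CEBPB were CER1 (r = -0.734), FAM177A1 (-0.714) and NDUFS3, a subunit of respiratory complex I (-0.713), the last at 0.03 in wolf 11310 and 1.07 in wolf 10406. NDUFS3 lay under the bound in wolf 11310 and in wolves 111080, 11206 and 11136, so its low end is not resolved from background. CER1 itself was not called among the wolves (adjusted p = 0.690 by limma). All these values come from the same arrays.

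CEBPA was most like UBE2H, a ubiquitin-conjugating enzyme gene (r = 0.981), UBXN10 (0.966), TAAR2 (0.945), the adhesion receptor gene CD44 (0.937), TIGAR (0.937) and the chromatin gene WDR5 (0.934), all 6 lowest in wolf 11136. In that wolf all of them but UBXN10 (0.57) lay under the bound. The median r with CEBPA over the 1596 genes was 0.468, against 0.110 for CEBPB. The lowest r with CEBPA were -0.545 for ORC5, -0.473 for ROMO1 and -0.419 for CAV2. ORC5 and CAV2 were not called among the wolves (adjusted p = 0.698 and 0.914 by limma). CEBPD was most like TNS1 (r = 0.932), CPLX4 (0.929), CST4 (0.926), UNC45A (0.923), PCDHA8 (0.922) and TMEM9 (0.922), all 6 highest in wolf 11273, as CEBPD was. TNS1 and PCDHA8 were not called among the wolves by limma, so their highest wolf is not set apart from array noise. TNS1 also lay under the bound in wolves 11310, 11136, 11148 and 11270. All 6 genes differed between slides by limma, as CEBPD did and as 84% of probes above the bound did. The part of slide in these r was not tested. Least like CEBPD were RAMAC (-0.718), ROMO1 (-0.680) and CYSTM1 (-0.679). All r are over 13 wolves.

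Each of the 3 members above the bound was set against 7 blood cell marker lists and the SD of the arrays, a family of 24 relations chosen after the data were seen, and none passed (smallest adjusted permutation p = 0.088). CEBPB with the mean of 13 monocyte genes had r = 0.659 (permutation p = 0.0147, or 0.088 adjusted) and rho = 0.615 (permutation p = 0.0286, or 0.214 adjusted), r = 0.677 without wolves 111080 and 11105 (permutation p = 0.0229), and r between 0.305 and 0.806 within slides. The monocyte mean was 0.04 for wolf 11310, 0.12 for wolf 111080 and -0.04 for wolf 10406, and the defining genes CD14 and CSF1R lay below the bound. CEBPB with the mean of 21 neutrophil genes had r = -0.321 (permutation p = 0.284, or 0.401 adjusted) and rho = -0.148 (permutation p = 0.631, or 0.721 adjusted), r = 0.101 without wolves 11273 and 11310 (permutation p = 0.765), and within-slide r from -0.618 to 0.070. The neutrophil mean ran from -0.02 in wolf 11310 to 0.05 in wolf 11273. CEBPD with the 15 red cell genes had r = 0.741 (permutation p = 0.00455, or 0.088 adjusted) and rho = 0.670 (permutation p = 0.0151, or 0.214 adjusted), r = 0.715 without wolves 11105 and 11310 (permutation p = 0.0167), and within-slide r from 0.224 to 0.868. CEBPA with the SD of the arrays had r = 0.676 (permutation p = 0.0110, or 0.088 adjusted) and rho = 0.571 (permutation p = 0.0448, or 0.215 adjusted), r = 0.697 without wolves 11136 and 10406 (permutation p = 0.0209), and within-slide r from 0.023 to 0.766. CEBPB with the red cell genes had r = -0.568 (permutation p = 0.0436, or 0.149 adjusted), and within-slide r from -0.924 to -0.088. Without wolves 11105 and 11310 this r was -0.497 (permutation p = 0.120). CEBPB with the SD of the arrays had r = 0.502 (permutation p = 0.0778, or 0.183 adjusted), and within-slide r from 0.401 to 0.791. CEBPA with the red cell genes had r = 0.659 (permutation p = 0.0141, or 0.088 adjusted), and within-slide r from -0.403 to 0.907. The part of cell makeup or array spread in the members' levels was not tested further.

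Other genes of the C/EBP pathway were taken from 6 lists of 104 genes, 99 of them measured. Among the wolves 16 of the 99, each read by its brightest probe, were called (16.2%, against 11.2% of all probes, dim ones included). Of these 16, 12 were among the 14 whose mean lay above the bound, where 78.1% of all probes were called. The median SD over wolves of the 99 genes was 0.09, as it was over all probes. For these genes, ranges that start under the bound of 0.40 are differences in measured intensity. Their low ends are not resolved from background.

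Of the relatives and dimer partners 3 of 15 were called. FOS, which pairs with JUN proteins in the AP-1 factor, was by far highest in wolf 11310 (4.68), followed by wolves 10537 (2.33) and 111080 (2.13), and wolf 11273 had 0.20. ATF4, a stress-response factor that dimerises with C/EBP proteins, ran from 0.16 in wolf 11136 to 1.14 in wolf 11206. The third was BATF, below the bound in each wolf. The C/EBP homologous gene DDIT3 and CEBPZ, at mean levels of -0.09 and -0.10, were not called (adjusted p = 0.287 and 0.102 by limma).

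Of 18 measured genes of upstream signalling, 2 were called. GSK3B, a kinase that phosphorylates C/EBP proteins, ran from 0.24 in wolf 10632 to 1.27 in wolf 11310, and the coactivator gene EP300 from 0.04 in wolf 11273 to 1.07 in wolf 11206. The receptor genes IL6R, IL6ST, CSF3R, TLR2 and TLR4 and STAT3, the carrier of interleukin-6 signals, had mean levels of -0.05 or lower and were not called. Of 13 genes that control C/EBP proteins or their translation, 4 were called. COP1, a ubiquitin ligase that with Tribbles proteins degrades C/EBP-alpha, was lowest in wolf 10406 at 0.37 and reached 1.34 in wolf 111080, with wolf 11206 above it. CELF1, which binds CEBPB messenger RNA, ran from 0.01 in wolf 11273 to 1.12 in wolf 11270, and the cap-binding gene EIF4E from 0.04 in wolf 11273 to 0.79 in wolf 11310. The mean level of EIF4E was 0.31, below the bound. The Tribbles gene TRIB1 stood at 0.46 in wolf 11310, and no other wolf exceeded 0.00.

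Of 13 myeloid transcription factors 4 were called. KLF6, a zinc finger factor induced in activated myeloid cells, was highest in wolves 111080 (2.32) and 11206 (2.12). Wolves 11310 (1.80), 10537 (1.79) and 11270 (1.78) followed, closer to each other than the array SD of 0.18. Wolf 11273 was lowest at 0.52, and wolf 10406, the lowest in CEBPB, had 0.84. RARA, a retinoic acid receptor that promotes granulocyte maturation, reached 2.65 in wolf 111080, and wolf 11136 was lowest with 0.56. EGR1 stood at 5.48 in wolf 11310, with wolf 10537 next at 1.83, and KLF4, a monocyte factor, ran from -0.16 in wolf 11273 to 0.48 in wolf 11206. The mean level of KLF4 was 0.16, below the bound, and of the wolves only 11206 and 11310 lay above it. SPI1, the master regulator of myeloid cells, had a mean level of 0.16 and was not called (adjusted p = 0.237 by limma).

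**Figure D5:**
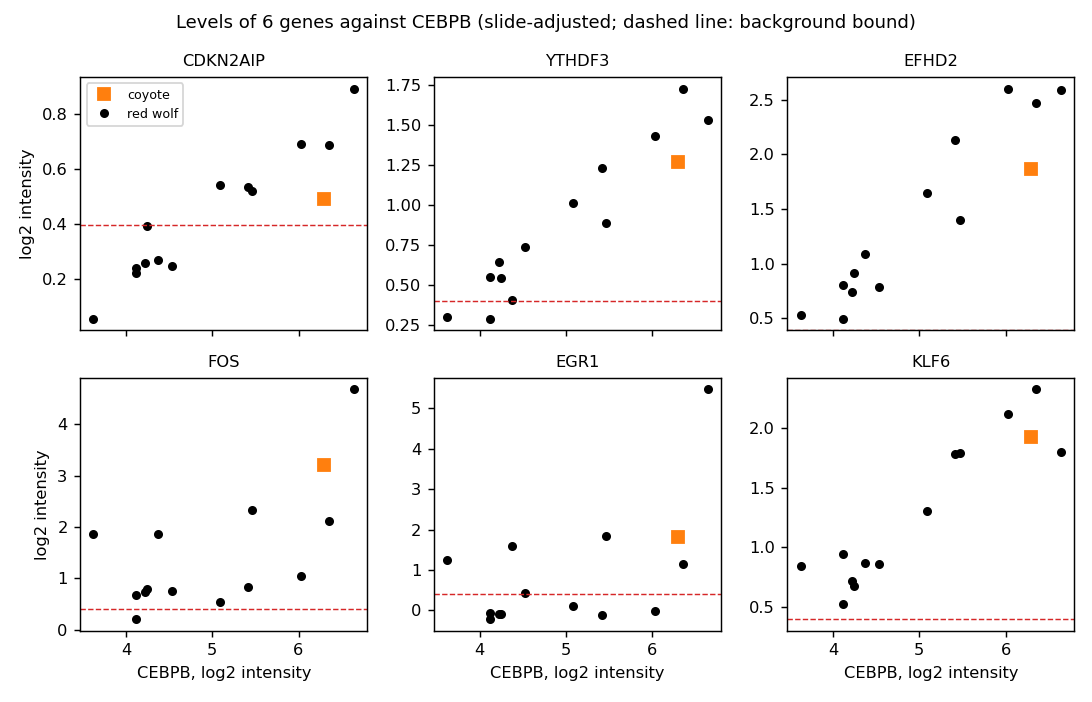
Slide-adjusted log2 levels of 3 genes most like CEBPB (top row) and of FOS, EGR1 and KLF6 (bottom row) against CEBPB, for the coyote (square) and 13 red wolves (circles); the dashed line is the background bound of 0.40. The top row and KLF6 climb with CEBPB, while EGR1 and FOS stand high in wolf 11310 at the right end, at 5.48 and 4.68.

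The last lists held known targets of C/EBP proteins. None of 21 granule and neutrophil targets was called by limma, and none of the 21 had a mean level above the bound; the granule genes ELANE, MPO, LTF, CAMP and LCN2 had mean levels of 0.37, 0.08, -0.29, 0.21 and 0.01. The smallest adjusted p in that list was 0.230, for S100A9. Of 19 inflammatory and metabolic targets 3 were called. SOD2, the mitochondrial superoxide dismutase, ran from 0.29 in wolf 10406 to 1.15 in wolf 11206. PPARG, a nuclear receptor of fat and macrophages, ran from 0.77 in wolf 11310 to 2.10 in wolf 11275, and the nitric oxide synthase gene NOS2 from 0.28 in wolf 11136 to 0.75 in wolf 11273. The cytokine genes IL1B, IL6, CXCL8 and TNF had mean levels of -0.13 or lower and were not called.

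Coyote and wolves were compared with 1 value for each animal, its own spread being assumed to equal theirs. Its 4 arrays read 6.15, 6.31, 6.42 and 6.44 for CEBPB, against slide-adjusted levels from 3.62 to 6.65 in the 13 wolves. The coyote lay within the range of the wolves, above 11 of them and below wolves 11310 and 111080. Its difference from the wolves' mean was 1.36 on the log2 scale (SE 0.84, 95% interval -0.37 to 3.08), with an unadjusted p of 0.119 and an adjusted p of 0.998 in limma's test. On each of its 4 slides the coyote was above the wolves' mean, by 1.06, 1.78, 1.13 and 1.44, and 2, 0, 1 and 1 wolves of those slides stood above it. The monocyte mean was 0.16 in the coyote against -0.10 to 0.12 in the wolves. The coyote was above the wolves' mean in 8 of the 13 monocyte genes. The single probe called in the coyote was that of FCER1G, which is itself 1 of these 13 genes. The part of the monocyte genes in the CEBPB level was not tested. None of the 5 members was called in the coyote by limma, where 0.00411% of all probes were called and 12.2% lay outside the range of the wolves.

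For CEBPA the coyote stood at a slide-adjusted 0.48 and the wolves' mean at 0.62, a difference of -0.15 (95% interval -0.57 to 0.28). For CEBPD the coyote stood at 0.29 and the wolves at 0.45, a difference of -0.15 (-0.46 to 0.15), and for CEBPE the coyote stood at 0.06 and the wolves at 0.12, a difference of -0.06 (-0.26 to 0.14). For CEBPG the coyote, at 0.04, lay above all 13 wolves, whose mean was -0.10 (difference 0.14, 95% interval -0.02 to 0.30, unadjusted p = 0.0815 in limma's test). All of these CEBPG levels are below the bound, and on slide 4 the coyote read -0.26, with 6 of 7 wolves above it. Leaving out 1 array of each animal moved the CEBPG difference between 0.01 and 0.27, the CEBPA difference between -0.22 and -0.04 and the CEBPE difference between -0.11 and 0.02, so that the sizes and, for CEBPE, the sign depended on the arrays used. Unadjusted p values were 0.491 for CEBPA, 0.306 for CEBPD and 0.565 for CEBPE in limma's test, and the adjusted p was 0.998 for all 5 members. An unadjusted p under 0.05 was found for 0 of the 5 members, against 3.74% of all probes.

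None of the 99 pathway genes was called in the coyote. The largest differences were 1.79 for FOS (coyote 3.21, wolves 1.42), 0.96 for EGR1 (coyote 1.82, wolves 0.86), 0.76 for SOD2 (coyote 1.39, wolves 0.63) and 0.65 for KLF6 (coyote 1.92, wolves 1.27). In the other lists they were 0.45 for GSK3B, 0.44 for COP1 and -0.21 for FPR1, a receptor of bacterial peptides on neutrophils.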

How the data were processed

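The deposited values are log2 intensities of 24354 probes on 56 human Illumina bead arrays, for which the submitters' processing notes name BeadStudio 1.5.0.34. Per the labels' design text the authors centred each array on its median; in the table the mean of each array is 0. No source used here states whether a background was subtracted, and probe names come from the platform annotation. No canid genome or sequence was used.

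All probes were fitted with limma 3.58.1 (R 4.3.3, variance trended on intensity), p-values were adjusted by Benjamini-Hochberg at 0.05, and the fits were tested on simulated data. Slide-adjusted levels come from a fit of animal and slide on all 56 arrays, and differences among wolves and between pairs from the fit on the wolves' arrays. Correlations used 100000 permutations. A gene was represented by its brightest probe. Named were every member, the 6 genes most and 3 least like each member above the bound, and the pathway genes called (at most 5 per list) or furthest off in the coyote; further list genes serve as examples picked with their values in view. The members and lists were chosen with earlier results of these data known. The 4 arrays per animal limit the precision of differences among wolves. Correlations are limited by the 13 wolves, and the coyote comparison by its 1 coyote.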

Additional observations from a re-analysis of the deposited data

Results flagged for a closer look

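Among the 4 arrays of an animal, 1 array stood apart from the other 3 in 4 of 70 sets (5 genes in 14 animals), where chance gives about 1 in 20. For CEBPA, wolf 10632 read -0.31 on slide 7 against 0.67 to 0.71 on its other arrays. For CEBPB, wolf 111080 read 6.45 on slide 1 against 6.33 to 6.34, a gap of 0.11 on the log2 scale. For CEBPG, wolf 10632 read -0.24 on slide 1 against 0.03 to 0.06, and wolf 11206 read -0.28 on slide 7 against -0.01 to 0.03.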

How the results depend on the processing

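The call of CEBPB and CEBPA among wolves held in all 26 alternatives, with adjusted p up to 3.53e-16 and 0.027 by limma; CEBPD was lost in 4 of 26. The number of members called was 3 in each other setting, 2 to 3 over the settings leaving out 1 array per animal and 2 to 3 leaving out 1 wolf. CEBPB pairs called ran from 45 to 59 leaving out an array and from 41 to 48 of 66 leaving out a wolf. Without wolves 11310 and 10406 they were 35 of 55, where fewer pairs exist. With arrays scaled to the same SD, 42 of 78 CEBPB pairs were called, against 53 in the main fit. The SD of CEBPB over wolves was then 0.79 against 0.97. For CEBPA, pairs called ran from 2 to 21 and for CEBPD from 0 to 18, both highest with dim probes left out. The share of variance between wolves became 0.377 (CEBPA), 0.957 (CEBPB) and 0.470 (CEBPD) after quantile normalization, and 0.931 (CEBPB), 0.308 (CEBPD) and -0.081 (CEBPE) without slide; the cause was not tested. No member was called in the coyote in 27 alternatives, and the CEBPB difference ran from 1.16 to 1.54. Without wolf 11136, 1 pair of members passed, CEBPA with CEBPE (r = 0.842, adjusted permutation p = 0.0084), against 0 in the other 15 alternatives, and 5 in place of 3 relatives and dimer partners were called. Settings without wolf 11136 for the lists, without wolves 11310 and 10406, and without the low array of wolf 11310 were chosen after seeing the data. No paired analysis was possible because the labels give no replicate numbers shared between animals; slides, which animals do share, were in the model.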
